A study of Homo sapiens with 12 samples.

Results

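The comparison asked how 17β-estradiol (E2) and induction of estrogen receptor beta act together, as a difference of differences. It is the E2 change in cells induced to make the receptor minus the E2 change in cells that were not, and it used all 12 of the 12 RNA sequencing libraries of the series. MDA-MB-468 is a human triple-negative breast cancer line, here the derivative in which doxycycline induces ERβ1, the full-length form encoded by ESR2. Uninduced cells had no doxycycline, and induced cells had 50 ng/mL for 48 h. Each state then received either 0.1% DMSO as vehicle or 10 nM E2 for 4 h, which gave 3 libraries in each of an uninduced vehicle, an uninduced E2, an induced vehicle and an induced E2 group. The medium of all groups lacked phenol red, and its serum, at 10% for 3 days before the experiment and at 5% during it, had been stripped with charcoal. All groups carried the inducible receptor construct, so the effect of doxycycline itself and that of the receptor cannot be told apart in these data. The sources used here do not say whether the line is a single clone, and the labels do not say whether the replicates were separate cultures, so the p-values measure the spread between these samples.

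Estrogen receptor beta is a nuclear receptor that binds DNA as a dimer and changes the transcription of genes near its sites. Estradiol binding reshapes its ligand pocket and changes which coactivators and corepressors it holds. Receptors of this family also act on genes through other DNA-bound factors such as AP-1, and may occupy chromatin with no added hormone. In breast epithelium ERβ is known mostly for opposing growth, whereas ERα, encoded by ESR1, drives the growth of hormone-dependent tumors and is absent or low in triple-negative lines.

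With 4 groups, 3 steps can be read for each gene. The receptor step is induced vehicle minus uninduced vehicle. The ligand step without receptor is uninduced E2 minus uninduced vehicle. The interaction is the ligand step with induction minus the ligand step without it. Each is a log2 difference from 1 edgeR quasi-likelihood fit over 14541 genes with the replicate number as a block, called at a Benjamini-Hochberg adjusted p under 0.05. The interaction was called higher in 1288 genes, which is 8.86% of those tested, and lower in 855 genes, or 5.88%, so 14.7% were called in either direction. Of the called interactions 60.1% were higher, or 49.6% with upper quartile scaling. Doxycycline without E2 raised 805 genes (5.54%) and lowered 651 (4.48%), so 10% were called in either direction. E2 in uninduced cells changed 0 genes (0%) in edgeR, DESeq2 and limma-voom, with 451 genes at an unadjusted p under 0.05 in edgeR and a smallest adjusted p of 0.377.

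Sorting by these calls gave 4 patterns. The 1472 ligand-only genes had an interaction and no called receptor step. Within induced cells, where E2 changed 23.8% of all genes tested, 1424 of them were called for E2 as well. The E2 change within induced cells is a term of the interaction, so most of this overlap was set by the sorting. Of the 1472, 851 were higher and 621 lower, and in 1111 the 95% interval of the receptor step lay within 1.2-fold either way. The 785 receptor-only genes had a receptor step (371 higher, 414 lower) and no called interaction. Of the 785, 198 were called for E2 within induced cells. In 434 the 95% interval of the interaction lay within 1.2-fold; for the others a larger interaction could not be told from 0 at this precision. The 568 additive genes had a receptor step and an interaction in the same direction on the log2 scale (384 higher, 184 lower). The name does not mean that the separate log2 changes of doxycycline and E2 sum to the change with both. A called interaction is a departure from that sum. In the 103 opposing genes the receptor step and the interaction were of opposite sign. No gene was called for E2 in the uninduced state without an interaction, and 11613 genes had none of these patterns. The interaction and the receptor step share the 6 vehicle libraries, which enter with opposite signs, so chance deviations in those libraries favor opposing and weaken additive patterns; no overlap between the calls is read as a result. Without the block the counts were 973 ligand-only, 295 receptor-only, 233 additive and 26 opposing genes.

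**Figure D1:**
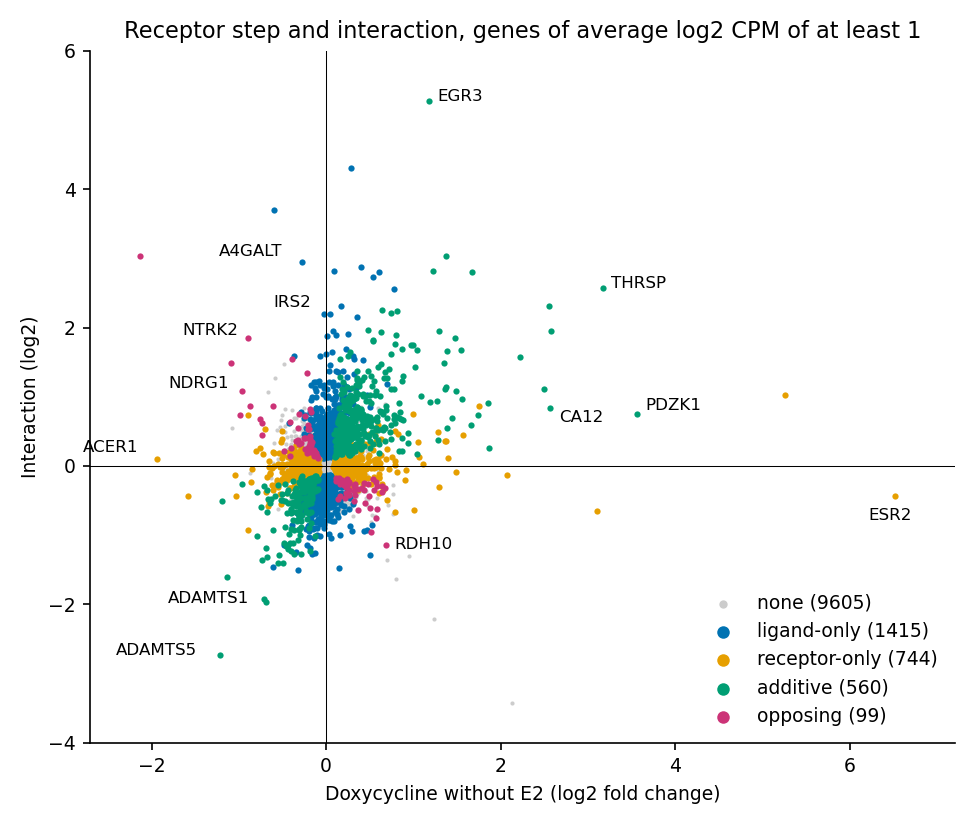
Each point is a gene of average log2 CPM of at least 1, with the log2 change from doxycycline without E2 on the x axis and the log2 interaction on the y axis, colored by pattern, with the number of genes in the key. EGR3 lies highest, ESR2 lies far right near 0 on the y axis, ADAMTS5 lies lowest among the named genes, and 1 gene, RPL21, lies outside the axes.

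Promoter sequence was looked up for the genes on which the patterns turn. The classical estrogen response element is a palindrome of 2 arms, GGTCA and TGACC, separated by 3 bases of any kind. RefSeq promoter windows of 300 bases on GRCh38.p14, from 250 bases before the gene start to 50 after, were matched by symbol to 9874 of the 14541 tested genes, and both strands were read. The palindrome was in 2 of 14466 such windows (0.0138%), and a single arm, which the palindrome also holds, was in 34.8%. The AP-1 motif TGANTCA was in 5.5%. Windows of ligand-only genes held an arm in 31.7% and the AP-1 motif in 5.59% of cases, and windows of additive genes in 33% and 5.75%. For receptor-only genes the shares were 32.6% and 6.98%, with 1 of the 2 palindromes, and for opposing genes, with 132 windows, 25% and 6.82%. Of the 24 genes with the largest interactions in either direction, 10 had a window, 0 of these held the palindrome or the AP-1 motif, and 5 held an arm. A match is a description of the letters and not a binding site. The bases before the start are shown for 4 genes, chosen after their values were seen, with the arms in capitals. A4GALT was ligand-only, and THRSP, PDZK1 and CA12 were additive. Only windows that hold an arm were taken, so that all 4 hold an arm was set by the choice. Of the 2 windows of A4GALT, 1 held an arm and is shown. A4GALT (chr22:42720871-42721120, minus strand) responded to E2 in induced cells. THRSP (chr11:78063611-78063860, plus strand), PDZK1 (chr1:145707401-145707650, minus strand) and CA12 (chr15:63381847-63382096, minus strand) rose at both steps. On the log2 scale their receptor steps were larger than their interactions.
A4GALT: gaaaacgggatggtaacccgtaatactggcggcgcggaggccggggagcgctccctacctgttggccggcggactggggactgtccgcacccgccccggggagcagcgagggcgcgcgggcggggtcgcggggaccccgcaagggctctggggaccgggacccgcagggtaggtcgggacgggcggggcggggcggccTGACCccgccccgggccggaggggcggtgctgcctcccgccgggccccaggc
THRSP: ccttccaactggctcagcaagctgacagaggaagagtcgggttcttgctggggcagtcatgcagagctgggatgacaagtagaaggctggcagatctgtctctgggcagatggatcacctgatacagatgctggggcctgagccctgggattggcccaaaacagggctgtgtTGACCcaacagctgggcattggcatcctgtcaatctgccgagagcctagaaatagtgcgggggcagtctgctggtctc
PDZK1: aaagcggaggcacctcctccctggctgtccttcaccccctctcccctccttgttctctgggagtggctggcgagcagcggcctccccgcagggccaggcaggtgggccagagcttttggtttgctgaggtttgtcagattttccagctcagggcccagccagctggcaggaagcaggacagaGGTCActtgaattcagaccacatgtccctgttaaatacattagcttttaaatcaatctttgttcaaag
CA12: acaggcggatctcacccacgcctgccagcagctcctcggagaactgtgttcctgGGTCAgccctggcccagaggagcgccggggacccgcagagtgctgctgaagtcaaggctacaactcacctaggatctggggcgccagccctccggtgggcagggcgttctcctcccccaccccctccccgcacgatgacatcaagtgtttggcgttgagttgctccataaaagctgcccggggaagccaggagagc
The arm begins 52 bases before the start in A4GALT, 78 in THRSP, 68 in PDZK1 and 196 in CA12.

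The receptor itself was checked first. ESR2 stood at 1.37, 1.06 and 1.47 CPM in uninduced vehicle, 2.26, 1.28 and 1.27 CPM in uninduced E2, 134, 113 and 115 CPM in induced vehicle, and 116, 98.6 and 98 CPM in induced E2 libraries. Every induced library was far above every uninduced one, with a receptor step of 6.51 log2 (SE 0.08, adjusted p = 1.25e-20) and an interaction of −0.43 log2 (SE 0.21, adjusted p = 0.198), whose 95% interval was −0.86 to 0.00 log2. ESR2 was thus receptor-only by the rule, with all 3 numbered interactions below 0 (−0.90, −0.46 and −0.03), and E2 within induced cells changed it by −0.21 log2 (adjusted p = 0.0003). ESR1 stood between 3.21 and 6.12 CPM in all 12 libraries, with an interaction of 0.03 log2 (SE 0.20, adjusted p = 0.962), and PGR, the progesterone receptor gene and a target of ERα, was under the floor of 3 counts in 12 of 12. Libraries held 7.89 M to 33.3 M counts, where 3 counts are worth 0.375 to 0.0896 CPM. EPCAM, an epithelial surface marker, lay between 331 and 349 CPM. KRT8, KRT18, KRT19 and CDH1, of the same epithelial list, were not flat. Their means were 1950, 1090, 1930 and 150 CPM in uninduced vehicle and 2810, 1540, 2600 and 331 CPM in induced E2 cells. ERBB2, a further receptor gene, lay between 66.2 and 86.3 CPM, with means of 68.6 CPM in uninduced vehicle and 83.3 CPM in induced E2 cells. Markers of other cell types were mixed. Of the immune list, CD3E and MS4A1 were under the floor in all 12 and PTPRC in 7, while CD14 and CD68 were above it in all 12, at 21.9 to 37.2 and 4.37 to 8.93 CPM. CD14 had an interaction of −0.32 log2 (SE 0.08, adjusted p = 0.00791), lost without the block (adjusted p = 0.47). Of the 7 fibroblast genes, COL1A2, COL3A1, DCN and LUM were under the floor in all 12 and PDGFRB in 3, while COL1A1 and PDGFRA lay at 19.2 to 26.3 and 1.08 to 3.77 CPM. The part of such markers in the results was not tested.

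EGR3, a zinc-finger transcription factor of the immediate early class, had the largest interaction of the genes named. It stood at 0.375, 0.566 and 0.516 CPM in uninduced vehicle, 0.509, 0.418 and 0.795 CPM in uninduced E2, 0.933, 1.23 and 1.21 CPM in induced vehicle, and 42.4, 51.7 and 52.5 CPM in induced E2 libraries. The induced E2 libraries lay above all others, and the induced vehicle libraries lay above the 6 uninduced ones. The interaction was 5.27 log2 (SE 0.39, adjusted p = 7.28e-09), with 5.01, 5.67 and 4.79 log2 in numbers 1 to 3. Its receptor step was 1.18 log2 (SE 0.26, adjusted p = 0.00489), and that call is lost without the block (adjusted p = 0.0519). Of the whole rise, 1.32% ± 0.0253 (SD, n = 3) was present before E2.

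Among ligand-only genes, A4GALT, which makes the glycolipid globotriaosylceramide, stood at 2.37, 3.36 and 3.1 CPM in uninduced vehicle, 2.49, 3.67 and 2.9 CPM in uninduced E2, 1.55, 2.83 and 2.68 CPM in induced vehicle, and 13.8, 22.1 and 21.7 CPM in induced E2 libraries. The first 9 of these overlap and the 3 induced E2 libraries lie above them. The interaction was 2.95 log2 (SE 0.18, adjusted p = 3.08e-10) and the receptor step −0.28 log2 (SE 0.14, adjusted p = 0.307). IRS2, an adaptor that carries insulin and IGF receptor signals, stood at 47.3, 36.3 and 37.2 CPM in uninduced vehicle, 43.4, 37.5 and 34.7 CPM in uninduced E2, 53.2, 36.4 and 36.5 CPM in induced vehicle, and 201, 174 and 174 CPM in induced E2 libraries. Here too the 3 induced E2 libraries lay above the other 9, with an interaction of 2.2 log2 (SE 0.08, adjusted p = 1.1e-12) and a 95% interval of the receptor step of −0.09 to 0.18 log2. RET, the receptor tyrosine kinase for GDNF-family ligands, stood at 1.37, 1.17 and 0.913 CPM in uninduced vehicle, 1.25, 0.747 and 0.715 CPM in uninduced E2, 1.55, 1.13 and 1.84 CPM in induced vehicle, and 7.22, 9.44 and 8.14 CPM in induced E2 libraries. That is an interaction of 2.87 log2 (SE 0.36, adjusted p = 8.66e-06).

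The other ligand-only genes of the largest increases were low before E2. SHISA2, which limits maturation of Wnt and FGF receptors, went from 0.417 ± 0.237 CPM in induced vehicle to 11 ± 0.675 CPM in induced E2 cells (mean ± SD, n = 3), with an interaction of 4.3 log2 (SE 0.59, adjusted p = 2.46e-05). BSND, the accessory subunit of renal and inner-ear chloride channels, went from 0.540 ± 0.272 to 7.67 ± 1.5 CPM (interaction 3.7 log2). EFR3B, which anchors a phosphatidylinositol kinase at the plasma membrane, went from 1.93 ± 0.775 to 9.24 ± 0.174 CPM (2.82 log2). The splicing regulator RBM24 went from 1.78 ± 0.687 to 9.35 ± 0.592 CPM (2.81 log2). DOK7, an adaptor for the muscle kinase MuSK, went from 1.61 ± 0.437 to 9.51 ± 0.362 CPM (2.74 log2). In each of these 5 genes, the induced E2 libraries lay above all others, and adjusted p-values of the interaction were between 7.2e-07 and 2.46e-05. Genes named here were chosen for large interactions, so standing apart in this way is not separate support. The receptor steps of these genes ran from −0.59 to 0.61 log2 and none was called, but at such low levels their 95% intervals were wide, up to −0.69 to 1.25 log2 in SHISA2.

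**Figure D2:**
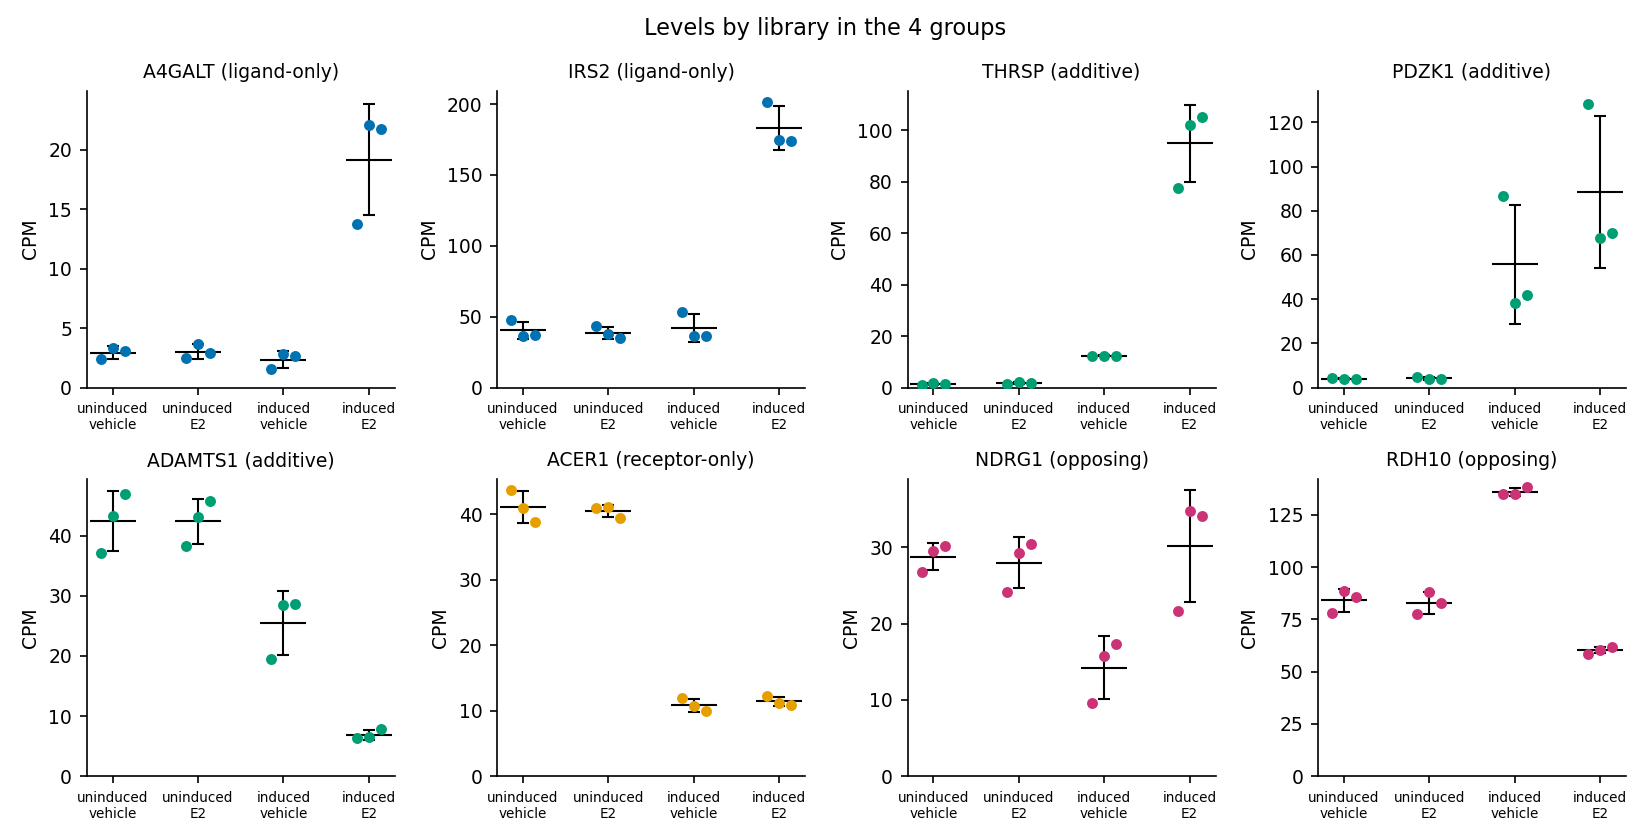
Each panel shows 1 gene, with the 4 groups on the x axis and TMM-scaled CPM on a linear y axis from 0; points are libraries, and the bar and whiskers are the mean and SD (n = 3). A4GALT and IRS2 step up with both agents together, THRSP and PDZK1 rise at both steps by different shares, ADAMTS1 falls at both, ACER1 falls at the receptor step, and NDRG1 and RDH10 move back when E2 is added.

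Some of the large decreases were ligand-only as well. SHROOM2, an actin-binding protein of cell junctions, stood at 6.37, 11.4 and 10.8 CPM in uninduced vehicle, 8.32, 10.8 and 11.1 CPM in uninduced E2, 4.51, 8.83 and 9.63 CPM in induced vehicle, and 1.93, 3.26 and 3.28 CPM in induced E2 libraries. The induced E2 libraries were the lowest 3 of 12. The interaction was −1.5 log2 (SE 0.16, adjusted p = 1.11e-06), and the receptor step of −0.32 log2 (SE 0.10, adjusted p = 0.0618) was just outside the threshold. KLHL38, of the Kelch-like family, went from 1.93 ± 0.285 CPM in induced vehicle to 0.743 ± 0.485 CPM in induced E2 cells, the lowest 3 of 12, with an interaction of −1.46 log2 (SE 0.33, adjusted p = 0.0043) that is lost without the libraries numbered 2 (adjusted p = 0.146). The read-through transcript MSH5-C6orf26 also met the rule at −1.47 log2 (SE 0.41, adjusted p = 0.0192), but its induced E2 libraries overlapped the others, its count is uncertain because it shares sequence with both parent genes, and the call is lost without the block (adjusted p = 0.0639). E2 within induced cells was not called in it (−0.74 log2, adjusted p = 0.0986).

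Additive genes that rose differed in how much of the rise was present with doxycycline before E2. THRSP, a regulator of fatty acid synthesis, stood at 1.12, 1.62 and 1.27 CPM in uninduced vehicle, 1.25, 2.09 and 1.87 CPM in uninduced E2, 12.4, 12.4 and 12.3 CPM in induced vehicle, and 77.7, 102 and 105 CPM in induced E2 libraries. Neither the receptor step nor the ligand step overlaps, and the 3 induced vehicle libraries are close together. Doxycycline alone changed it by 3.17 log2 (SE 0.14, adjusted p = 1e-11) and its interaction 2.57 log2 (SE 0.25, adjusted p = 2.52e-07), so 12.1% ± 2.36 (SD, n = 3) of the final rise in CPM was present before E2. PDZK1, a scaffold for membrane transporters, stood at 4.25, 4.0 and 3.89 CPM in uninduced vehicle, 4.98, 3.94 and 3.78 CPM in uninduced E2, 86.5, 38.5 and 42.1 CPM in induced vehicle, and 128, 67.7 and 69.8 CPM in induced E2 libraries. The number 1 library was the highest in each induced group and the groups overlap between vehicle and E2. The receptor step was 3.56 log2 (SE 0.12, adjusted p = 7.24e-14) and made up 59.5% ± 6.27 of the rise, while the interaction, 0.75 log2 (SE 0.20, adjusted p = 0.0124), is lost without the block (adjusted p = 0.662). CA12, a membrane carbonic anhydrase, stood at 7.62, 10.9 and 12 CPM in uninduced vehicle, 12.2, 12.8 and 11.5 CPM in uninduced E2, 64.5, 62.6 and 64.6 CPM in induced vehicle, and 119, 135 and 130.0 CPM in induced E2 libraries. The receptor step was 2.56 log2 (SE 0.07, adjusted p = 1.46e-14), its interaction 0.83 log2 (SE 0.11, adjusted p = 1.23e-05), and its receptor share 45.8% ± 4.9.

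The same measure placed the other additive increases along a range. For KRT13, a keratin of stratified epithelium, the receptor share was 40.3% ± 8.17, with an interaction of 1.11 log2 (SE 0.27, adjusted p = 0.00744) that is lost without the block (adjusted p = 0.449). For RBP3, a retinoid-binding protein, it was 23% ± 4.06 (interaction 1.95 log2 (SE 0.45, adjusted p = 0.00438)), a call that is lost when uninduced vehicle replicate 2 or all libraries numbered 2 or 3 are left out. For CD34, a surface sialomucin, it was 18.9% ± 2.96 with values of 1.25, 0.378 and 0.556 CPM in uninduced vehicle, 0.566, 0.538 and 0.437 CPM in uninduced E2, 3.58, 3.21 and 3.63 CPM in induced vehicle, and 16, 15 and 14.8 CPM in induced E2 libraries. CD34 rose at both steps without overlap, by 2.55 log2 at the first and 2.32 log2 in the interaction. For MGAT3, which adds the bisecting sugar to N-glycans, it was 12% ± 0.924, with an interaction of 2.8 log2 (SE 0.34, adjusted p = 4.69e-06). LOXL4, a lysyl oxidase of the matrix, had a share of 7.91% ± 3.94 and an interaction of 3.03 log2 (SE 0.51, adjusted p = 0.000243). VWF, the clotting factor carrier, had a share of 7.43% ± 3.23 and an interaction of 2.82 log2 (SE 0.42, adjusted p = 5.7e-05). The receptor steps of LOXL4 and VWF lost their calls without the block (adjusted p = 0.247 and 0.136), which makes them ligand-only there.

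**Figure D3:**
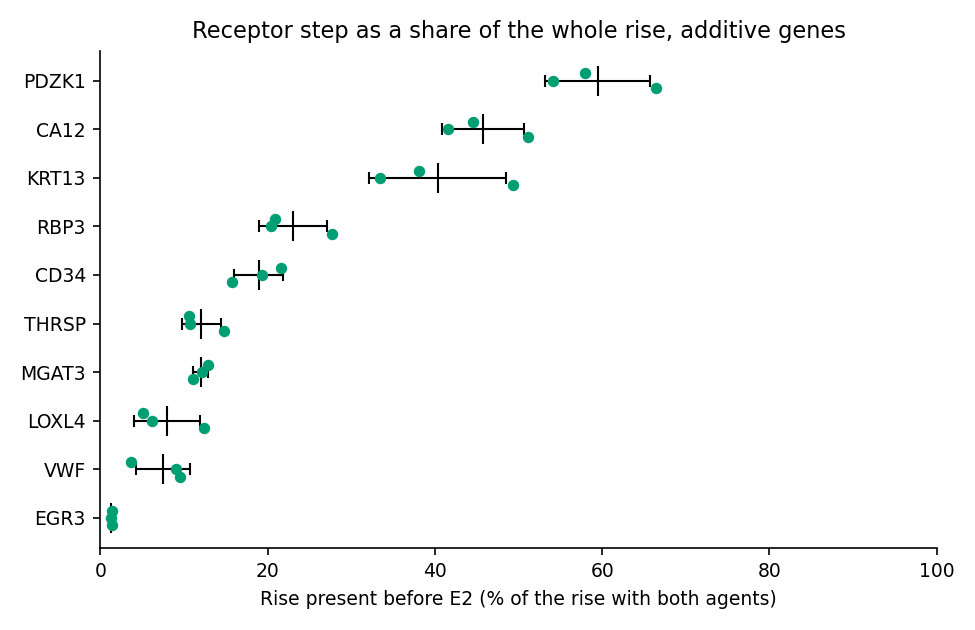
The rise from uninduced vehicle to induced vehicle as a percentage of the rise from uninduced vehicle to induced E2, in CPM, on the x axis, for the named additive genes that rose; points are replicate numbers 1 to 3, and the bar and whiskers are the mean and SD. EGR3 lies near 0, and PDZK1 lies highest at 59.5% ± 6.27.

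VWF and CD34 are also endothelial markers. Of the 6 endothelial genes looked at, CDH5 and TEK were at most 0.375 and 0.283 CPM and under the floor in 6 and 7 of 12 libraries. PECAM1 lay between 0.453 and 1.12 CPM, above the floor in all 12, and KDR fell. The 6 genes summed to 39.1 to 52.7 CPM in uninduced vehicle, 36.1 to 50.8 CPM in uninduced E2, 24.3 to 31.6 CPM in induced vehicle and 40.8 to 47.5 CPM in induced E2 libraries. Over all 568 additive genes the interaction exceeded the receptor step in size in 448 and was smaller in 120. The median SE over all genes tested was 0.085 log2 for the interaction and 0.062 log2 for the receptor step. An interaction thus had to be larger to be called, which favors this split, and the split is not read as a result.

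Additive decreases were led by secreted proteins. ADAMTS5, a protease that cuts aggrecan, stood at 4.62, 4.98 and 5.16 CPM in uninduced vehicle, 4.58, 4.39 and 4.61 CPM in uninduced E2, 1.4, 2.55 and 2.1 CPM in induced vehicle, and 0.114, 0.433 and 0.270 CPM in induced E2 libraries. The groups do not overlap across the receptor step or the ligand step, and 1 induced E2 library is under its floor of 3 counts. It changed by −1.21 log2 (SE 0.18, adjusted p = 7.01e-05) at the receptor step, with an interaction of −2.72 log2 (SE 0.34, adjusted p = 7.89e-06). ADAMTS1, a related protease, stood at 37.2, 43.3 and 47 CPM in uninduced vehicle, 38.4, 43.2 and 45.8 CPM in uninduced E2, 19.4, 28.5 and 28.7 CPM in induced vehicle, and 6.31, 6.49 and 7.82 CPM in induced E2 libraries. Again neither step overlaps, the interaction was −1.93 log2 (SE 0.10, adjusted p = 6.58e-11), and 48.2% ± 8.76 of the fall was present before E2. DKK1, a secreted inhibitor of Wnt signaling, stood at 39.7, 21.1 and 21.6 CPM in uninduced vehicle, 38.9, 20.6 and 20.3 CPM in uninduced E2, 24.9, 13.1 and 13.4 CPM in induced vehicle, and 6.77, 3.03 and 3.1 CPM in induced E2 libraries. In each group the number 1 library was the highest by over 1.5-fold, so the groups overlap at the receptor step and not in induced E2. Its interaction was −1.96 log2 (SE 0.10, adjusted p = 4.39e-11), and its receptor step, −0.69 log2, is called with the block and not without it (adjusted p = 0.387).

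IGFBP3, which binds IGF in serum and tissue, stood at 438, 431 and 443 CPM in uninduced vehicle, 411, 450.0 and 435 CPM in uninduced E2, 223, 263 and 268 CPM in induced vehicle, and 118, 130.5 and 123 CPM in induced E2 libraries. Both steps were without overlap, at −0.79 log2 (SE 0.04, adjusted p = 4.96e-11) for the receptor and −1.01 log2 (SE 0.06, adjusted p = 1.4e-10) for the interaction. PPP1R3C, which brings a phosphatase to glycogen, fell from 49.7 ± 5.98 to 30.9 ± 5.3 and then 13.6 ± 1.8 CPM (interaction −1.31 log2). The endocytic adaptor STON1 fell from 7.31 ± 1.58 to 3.24 ± 1.14 and 1.08 ± 0.266 CPM (−1.61 log2). The transcription factor SOX11 went from 21.6 ± 3.79 to 14.4 ± 4.16 and 4.96 ± 1.54 CPM (−1.41 log2), and RASSF10, of the Ras-association family, from 12.4 ± 1.1 to 8.61 ± 1.2 and 3.12 ± 0.642 CPM (−1.4 log2). In SOX11 and RASSF10 the receptor step lost its call without the block (adjusted p = 0.146 and 0.0638). HRCT1 had an interaction of −1.36 log2 (SE 0.23, adjusted p = 0.000245), with overlapping groups, and both of its calls are lost without the block (adjusted p = 0.124 and 0.264). CTGF, KDR and KRT14 fell mainly at the receptor step (−1.2, −0.96 and −0.80 log2), with interactions of −0.51, −0.26 and −0.38 log2. Those 3 interactions are lost without the block (adjusted p = 0.389, 0.637 and 0.283). The KDR interaction is lost in 13 of 23 alternatives of the same threshold, among them DESeq2 and limma-voom (adjusted p = 0.18 and 0.0747). The CTGF interaction is also lost with DESeq2 (adjusted p = 0.0662).

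Receptor-only genes had changed before E2 and had no called interaction, which does not mean that E2 added nothing within induced cells. ACER1, an alkaline ceramidase, stood at 43.7, 41 and 38.9 CPM in uninduced vehicle, 41, 41.2 and 39.5 CPM in uninduced E2, 11.9, 10.7 and 9.89 CPM in induced vehicle, and 12.2, 11.2 and 10.9 CPM in induced E2 libraries. The induced groups overlap each other and lie far below the uninduced ones. Its receptor step was −1.93 log2 (SE 0.06, adjusted p = 1.64e-14), and its interaction of 0.10 log2 had a 95% interval of −0.08 to 0.27. MMP7, a matrix protease made by epithelia, stood at 41.8, 66.9 and 73.8 CPM in uninduced vehicle, 41.9, 67.7 and 72.4 CPM in uninduced E2, 16.9, 35.6 and 34.5 CPM in induced vehicle, and 18.3, 31 and 31.2 CPM in induced E2 libraries. Doxycycline alone changed it by −1.05 log2 (SE 0.06, adjusted p = 1.15e-10), and the interval of its interaction was −0.29 to 0.04 log2. SCGB2A2, the secreted breast protein mammaglobin A, stood at 0.250, 0.529 and 0.596 CPM in uninduced vehicle, 0.736, 0.956 and 0.715 CPM in uninduced E2, 6.45, 4.05 and 4.21 CPM in induced vehicle, and 6.31, 4.13 and 3.78 CPM in induced E2 libraries. The receptor step was 3.1 log2 (SE 0.25, adjusted p = 3.26e-08), with an interaction interval of −1.41 to 0.12 log2 that is wide because the uninduced level is near the floor.

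FGF19, an endocrine growth factor, shows a limit of the sorting. It stood at 0.125, 0.189 and 0.0397 CPM in uninduced vehicle, 0.0566, 0.359 and 0.159 CPM in uninduced E2, 6.92, 3.83 and 4.94 CPM in induced vehicle, and 21.9, 18.3 and 14.5 CPM in induced E2 libraries. All induced E2 libraries were above all induced vehicle libraries, and 3 of the uninduced libraries were under the floor of 3 counts. The receptor step was 5.26 log2 (SE 0.38, adjusted p = 8.76e-09). The interaction, 1.03 log2 (SE 0.89, adjusted p = 0.538), had an interval of −0.83 to 2.88 log2, since the E2 change in uninduced cells could hardly be measured. Within induced cells alone, E2 changed FGF19 by 1.86 log2 (adjusted p = 2.21e-09). APOD, a lipid-carrying lipocalin, had a receptor step of 1.56 log2 (SE 0.19, adjusted p = 9.66e-06) and an interaction interval of −0.11 to 1.01; the sialyltransferase ST8SIA6 had 1.75 log2 (SE 0.23, adjusted p = 2.45e-05) and 0.19 to 1.54. In both, the induced E2 libraries lay above the induced vehicle libraries, and E2 within induced cells was called at 0.57 and 1.11 log2 (adjusted p = 0.00641 and 2.04e-05).

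Among the remaining large receptor-only falls, NOV, a matricellular protein, stood at 8.96 ± 1.27 CPM in uninduced vehicle and 2.88 ± 0.890 CPM in induced vehicle cells (receptor step −1.58 log2). CA2, a cytosolic carbonic anhydrase, stood at 16 ± 3.54 and 7.78 ± 3.07 CPM (−1.03 log2). Their interaction intervals, −0.85 to −0.01 and −0.80 to −0.06 log2, end just below 0 although neither was called after adjustment (adjusted p = 0.189 and 0.128). Within induced cells, E2 was called in CA2 (−0.45 log2, adjusted p = 0.0251) and in FAM105A (−0.71 log2, adjusted p = 0.0468). FAM105A had a receptor step of −0.89 log2 (SE 0.21, adjusted p = 0.00855), lost when replicate 2 or 3 was left out, and an interaction just outside the threshold (adjusted p = 0.0521). The pseudogene CYP2B7P1 (receptor step 2.07 log2) and the read-through TRIM39-RPP21 (−0.90 log2) share sequence with other genes and are uncertain, and the latter lost its call without the block (adjusted p = 0.0956).

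In opposing genes the interaction ran against the receptor step, and E2 within induced cells was called in 92 of the 103. That count too was largely set by the sorting, since the interaction holds the E2 change within induced cells. RDH10, which makes retinaldehyde for retinoic acid synthesis, stood at 78.1, 88.4 and 85.8 CPM in uninduced vehicle, 77.3, 88 and 82.7 CPM in uninduced E2, 135, 135 and 138 CPM in induced vehicle, and 58.5, 60.5 and 61.5 CPM in induced E2 libraries. The induced vehicle libraries were the highest 3 of 12 and the induced E2 libraries the lowest 3. Its receptor step was 0.68 log2 (SE 0.04, adjusted p = 3.77e-10) and its interaction −1.14 log2 (SE 0.06, adjusted p = 3.33e-11). NDRG1, a stress-responsive gene, stood at 26.7, 29.5 and 30.1 CPM in uninduced vehicle, 24.2, 29.3 and 30.4 CPM in uninduced E2, 9.56, 15.8 and 17.4 CPM in induced vehicle, and 21.7, 34.7 and 34.2 CPM in induced E2 libraries. Doxycycline alone changed it by −0.96 log2 (SE 0.09, adjusted p = 2.39e-07) and its interaction 1.08 log2 (SE 0.12, adjusted p = 1.08e-06), and the induced E2 libraries overlap the uninduced ones. NTRK2, the receptor for BDNF, stood at 4.75, 5.66 and 5.48 CPM in uninduced vehicle, 4.47, 5.26 and 5.68 CPM in uninduced E2, 3.03, 2.86 and 2.84 CPM in induced vehicle, and 7.9, 11.5 and 10.2 CPM in induced E2 libraries. The induced vehicle libraries were the lowest and the induced E2 libraries the highest, with a receptor step of −0.90 log2 (SE 0.13, adjusted p = 9.77e-05) and an interaction of 1.84 log2 (SE 0.17, adjusted p = 1.08e-07).

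Where opposing genes ended was read from induced E2 against uninduced E2, a contrast in which 37.3% of all genes tested were called. Of the 50 opposing genes that doxycycline raised, 32 were then not called, 9 were still higher and 9 were lower. Of the 53 that it lowered, 25 were not called, 5 were still lower and 23 were higher. TIMP3, an inhibitor of matrix proteases, is of the last kind, at 214, 230.1 and 234 CPM in uninduced vehicle, 226, 237 and 238 CPM in uninduced E2, 198, 208 and 198 CPM in induced vehicle, and 344, 362 and 367 CPM in induced E2 libraries. EGLN2, an oxygen-sensing prolyl hydroxylase, and the mucin MUC15 had smaller reversals, with receptor steps of 0.59 and 0.64 log2 and interactions of −0.28 and −0.30 log2. These interactions are lost without the block (adjusted p = 0.063 and 0.0585). TP63, a basal transcription factor, went from 4.83 ± 0.237 to 7.56 ± 0.876 and 5.45 ± 1.61 CPM, and both its calls are lost without the block (adjusted p = 0.0608 and 0.136). NPR3, a natriuretic peptide receptor, also lost both (adjusted p = 0.2 and 0.343). The read-throughs TMEM189-UBE2V1 and SYS1-DBNDD2 and the pseudogene GTF2IP1 met the rule with interactions of 3.04, 1.49 and 0.74 log2, are uncertain for shared sequence, and lost the interaction call without the block (adjusted p = 0.0657, 0.156 and 0.0996).

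Gene lists were next read by role, as counts of tested members called and the median log2 interaction, against 8.86% higher, 5.88% lower and a median of −0.01 over all genes. For doxycycline without E2 the shares over all genes were 5.54% higher and 4.48% lower. The lists were chosen with earlier results of these data known, so their counts are a description and not independent support. Known estrogen target genes, a list drawn from ERα biology, had 22 of 28 tested members higher in the interaction and 1 lower, CYP1B1. Their median was 0.68 log2, and without the block 17 were called higher. Doxycycline without E2 raised 15 of the 28 and lowered 1, KCNK5. Both calls in the lower direction are lost without the block. CYP1B1 and KCNK5, like other members named below only to spell out a small count, were named after their values were seen. ADORA1, an adenosine receptor, was ligand-only at 19.98, 23.3 and 23.5 CPM in uninduced vehicle, 22.2, 23.7 and 21 CPM in uninduced E2, 19.7, 24.4 and 24.9 CPM in induced vehicle, and 63.2, 62.6 and 62.8 CPM in induced E2 libraries, and its induced E2 libraries stood apart from the other 9. XBP1, a transcription factor of secretory cells, was additive at 323, 343 and 333 CPM in uninduced vehicle, 336, 352 and 346 CPM in uninduced E2, 522, 501 and 511 CPM in induced vehicle, and 847, 973 and 939 CPM in induced E2 libraries, with 0.62 log2 (SE 0.04, adjusted p = 4.7e-10) for the receptor step and 0.80 log2 (SE 0.05, adjusted p = 5.58e-10) for the interaction. SLC9A3R1, a scaffold under the apical membrane, had 0.30 and 0.70 log2, and the atypical cadherin CELSR2 had 0.43 and 1.01 log2.

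Within the receptor's own machinery, the interaction was called in 0 of 4 tested receptor genes, 2 of 7 chaperones (FKBP4 and FKBP5, both higher) and 2 of 9 coactivators (NCOA1 higher, NCOA7 lower). It was higher in 4 of 6 corepressors, and TLE3, a corepressor of the Groucho family, had 0.62 log2. The coactivator NCOA7 was ligand-only and lower, at 268, 238 and 257 CPM in uninduced vehicle, 259.6, 235 and 244 CPM in uninduced E2, 247, 248 and 258 CPM in induced vehicle, and 158, 145 and 146 CPM in induced E2 libraries. Its interaction was −0.71 log2 (SE 0.05, adjusted p = 2.45e-09). FKBP5, a chaperone partner of steroid receptors, was higher by 0.66 log2.

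Genes for other hormone receptors were called in both directions, 5 higher and 7 lower of 19 (3 lower without the block). The glucocorticoid receptor NR3C1 (−0.46 log2), the retinoic acid receptor RARG (−0.53 log2) and the thyroid hormone receptor THRB (−0.79 log2) were lower, and the orphan receptor NR2F6 was higher (0.44 log2). THRB lost its call without the block (adjusted p = 0.168). Of 13 genes known as glucocorticoid targets, 3 were higher and 2 lower (2 and 1 without the block).

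Immediate early genes, which answer growth signals within minutes to hours, were higher in 15 of 31 and lower in 2 (11 and 0 without the block). All of the called transcription factors among them, 12 of 21 tested, were higher, with a median of 0.40 log2. EGR1 stood at 23.4, 28.1 and 29.7 CPM in uninduced vehicle, 24.5, 28.5 and 27.7 CPM in uninduced E2, 26.7, 25.6 and 26.5 CPM in induced vehicle, and 56.4, 59.4 and 62.8 CPM in induced E2 libraries, and its 3 induced E2 libraries lay above the rest. MAFF, a small Maf factor, had an interaction of 1.2 log2 (SE 0.09, adjusted p = 3.94e-09). The 2 members that were lower were CTGF, a matricellular protein, and BTG2, an antiproliferative gene (−0.59 log2), and both lost that call without the block (adjusted p = 0.389 and 0.0758). CYR61, from the same family as CTGF, was additive and higher at 100.2, 99.9 and 105 CPM in uninduced vehicle, 96.8, 109 and 109 CPM in uninduced E2, 180.2, 160.3 and 155 CPM in induced vehicle, and 384, 439 and 414 CPM in induced E2 libraries. CYR61 and CTGF thus had receptor steps of 0.69 and −1.2 log2. Among 16 feedback regulators of MAPK signaling, 3 were higher and 2 lower (1 lower without the block). SPRY4 and SPRY1, a pair of Sprouty inhibitors, differed in sign: SPRY4 was higher by 1.3 log2 (SE 0.11, adjusted p = 2.25e-08) and SPRY1 lower by −1.19 log2 (SE 0.10, adjusted p = 2.23e-08). The phosphatases DUSP10 and DUSP16 were higher by 0.99 and 0.52 log2.

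In EGF and IGF signaling, 11 of 26 were higher and 3 lower. By role, 2 of 7 ligands (TGFA and AREG), 3 of 6 receptors (ERBB2, IGF1R and INSR), 3 of 6 adaptors (IRS1, IRS2 and GAB2) and 3 of 7 inhibitors (IGFBP4, IGFBP5 and LRIG1) were higher. The receptor ERBB3 and the inhibitors IGFBP3 and LRIG3 were lower. TGFA, a ligand of the EGF receptor, stood at 49.6, 41.6 and 43.5 CPM in uninduced vehicle, 46.2, 41.5 and 42.3 CPM in uninduced E2, 44.5, 38.2 and 40.3 CPM in induced vehicle, and 84.2, 95.9 and 94.1 CPM in induced E2 libraries. IRS1, an adaptor related to IRS2, stood at 35.7, 49.8 and 49.4 CPM in uninduced vehicle, 38.3, 48 and 45.7 CPM in uninduced E2, 47.8, 54.2 and 49.5 CPM in induced vehicle, and 99.1, 112 and 115 CPM in induced E2 libraries. In both genes the induced E2 libraries lay above the other 9, with interactions of 1.21 log2 (SE 0.09, adjusted p = 7.55e-09) and 1.17 log2 (SE 0.07, adjusted p = 6.25e-10) and no called receptor step. IGFBP3, described above, was the lower inhibitor with the smallest p.

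Developmental pathways were called in both directions. In the Wnt pathway 5 of 27 were higher and 6 lower (3 and 5 without the block). WNT4, a ligand of mammary branching, was additive at 6.87, 7.66 and 8.34 CPM in uninduced vehicle, 6.23, 7.71 and 7.51 CPM in uninduced E2, 21.1, 18.5 and 19 CPM in induced vehicle, and 70.3, 70.03 and 66.7 CPM in induced E2 libraries. The receptor step was 1.3 log2 and its interaction 1.95 log2, without overlap at either step. WNT10A was lower by −0.90 log2 and the secreted antagonist SFRP1 higher by 0.43 log2, while DKK1 was lower as given above. In the TGF-β and BMP pathway 6 of 31 were higher and 7 lower (4 and 5 without the block). The co-receptor TGFBR3 was higher by 1.29 log2 and the signaling receptor TGFBR2 lower by −0.70 log2. In the Notch pathway 2 of 13 were higher and 4 lower (2 lower without the block). The ligand DLL1 was higher by 1.64 log2 (SE 0.31, adjusted p = 0.000755) and the ligand JAG1 lower by −1.15 log2 (SE 0.11, adjusted p = 2.95e-07). JAG1 stood at 37.1, 25.8 and 20.8 CPM in uninduced vehicle, 32.4, 23.7 and 21.1 CPM in uninduced E2, 23.2, 17.6 and 18.3 CPM in induced vehicle, and 9.89, 7.47 and 7.64 CPM in induced E2 libraries, and its receptor step was not called without the block (adjusted p = 0.27).

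At the cell surface and in the matrix, 10 of 26 genes of glycan synthesis were higher and 6 lower (10 and 4 without the block). Beside A4GALT and MGAT3, B3GNT3 and B4GALT1, which extend sugar chains, were higher by 0.88 and 0.63 log2, and the sialyltransferase ST3GAL1 was lower by −0.59 log2. Of 19 matrix proteases and inhibitors, 3 were higher and 3 lower in the interaction. Doxycycline alone raised 1 and lowered 7 (0 and 5 without the block). The lower 3 were ADAMTS1, ADAMTS5 and the urokinase gene PLAU (−0.86 log2). Of 13 matricellular and YAP target genes, 4 were higher and 3 lower (4 and 2 without the block), among them AMOTL2 at 0.44 log2 and THBS1 at 0.41 log2.

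Metabolic lists were read at both steps. Of 18 genes of fatty acid synthesis, doxycycline alone raised 8 and lowered 0 (4 raised without the block), and the interaction was higher in 4. The 4 were THRSP, PNPLA3 (1.42 log2), SREBF1 (0.24 log2) and ACSS2 (0.21 log2), and SREBF1 lost its interaction call without the block (adjusted p = 0.413). Of 20 genes of cholesterol synthesis and transport, 3 were higher and 1 lower. The exporter ABCA1 was lower by −1.26 log2 (SE 0.25, adjusted p = 0.00138). The lipoprotein receptor SCARB1 was higher by 1.02 log2. Of 22 glycolysis and hypoxia genes, 6 were higher and 3 lower (5 and 3 without the block). PFKFB3, which makes the activator of glycolysis fructose bisphosphate, stood at 40.7, 46.9 and 44.5 CPM in uninduced vehicle, 41.7, 47.6 and 45.6 CPM in uninduced E2, 82.7, 81.6 and 81.4 CPM in induced vehicle, and 185, 211 and 214 CPM in induced E2 libraries. Its steps were 0.88 log2 for the receptor and 1.29 log2 for the interaction. The glucose transporter SLC2A1 was lower by −0.54 log2, with a receptor step of 0.01 log2 that was not called.

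Stress lists were counted next. In the unfolded protein response 12 of 26 were higher and 0 lower (9 and 0 without the block), with a median of 0.22 log2. Doxycycline alone raised 4 (2 without the block). The chaperones DNAJB9 and DNAJC3 were higher by 0.79 and 0.40 log2 and HERPUD1, of the degradation machinery, by 0.40 log2. Among ATF4 targets 11 of 31 were higher and 2 lower, but without the block 4 were higher and 0 lower. The amino acid transporter subunits SLC7A5 and SLC3A2, which form 1 complex, were higher by 1.16 log2 (SE 0.05, adjusted p = 4.84e-12) and 0.60 log2 (SE 0.04, adjusted p = 5.55e-09). Of 13 metallothioneins and NRF2 targets 7 were higher and 4 lower (5 and 0 without the block), with MT1X at 0.78 and MT1E at 0.58 log2. The MT1 genes are near copies of each other, so their counts are uncertain. Of 14 p53 targets, 3 were higher (CDKN1A, PMAIP1 and GADD45B) and 1 lower (BTG2).

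**Figure D4:**
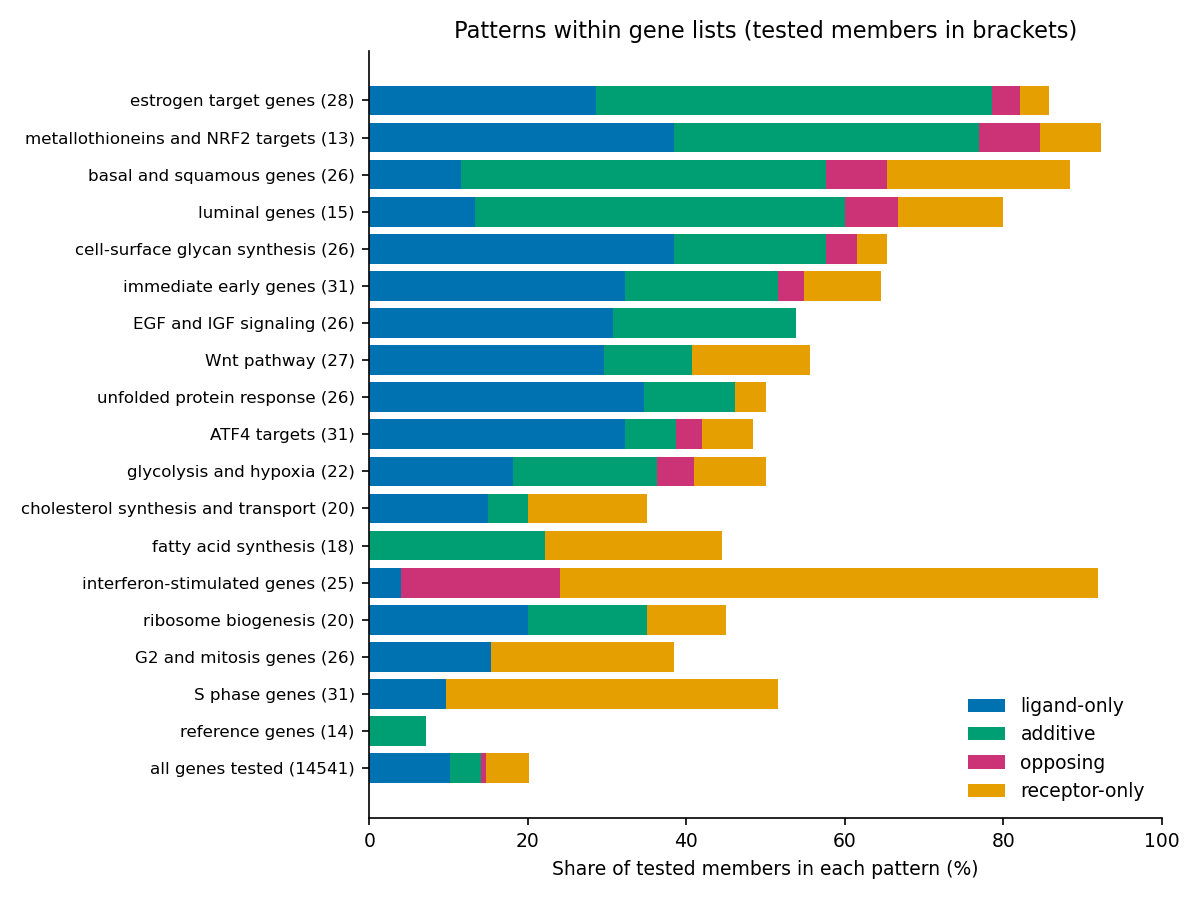
Share of the tested members of gene lists (x axis, percent) in the ligand-only, additive, opposing and receptor-only patterns, with the number of tested members in brackets and all genes tested at the bottom. The lists shown are a selection made by hand from the 33. Interferon-stimulated and S phase genes are mostly receptor-only among called members, and the unfolded protein response is mostly ligand-only.

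Cell cycle genes were called mainly at the receptor step and by small amounts. Doxycycline alone lowered 13 of 31 S phase genes and raised 0, all 13 receptor-only, with a median over the list of −0.13 log2, and 2 were called without the block. The interaction was higher in 3, CDC6 (0.38 log2), GINS4 (0.29 log2) and FEN1 (0.17 log2, lost without the block at adjusted p = 0.0928), and lower in 0. Of 26 genes of G2 and mitosis, doxycycline lowered 6 (3 without the block), and the interaction was higher in 4 (1 without the block). The interaction was thus called in 9.68% of S phase and 15.4% of G2 and mitosis genes, against 14.7% of all genes tested. Among cyclins and their kinase inhibitors, CDKN1A, which encodes the inhibitor p21, stood at 50.2, 50.6 and 57.4 CPM in uninduced vehicle, 47, 55 and 53.4 CPM in uninduced E2, 59.5, 64.6 and 68.9 CPM in induced vehicle, and 110.5, 127 and 128 CPM in induced E2 libraries. CDKN1A was additive, with an interaction of 0.93 log2 (SE 0.06, adjusted p = 1.38e-09), and ligand-only without the block (adjusted p = 0.0692 for the receptor step). The cyclins CCND1 and CCND3 were higher by 0.49 and 0.35 log2. In the BCL2 family 6 of 15 were higher and 1 lower, BIK (5 higher and 0 lower without the block). The 6 included 3 of 4 tested anti-death members (BCL2, BCL2L1 and BCL2L2). Of 20 ribosome biogenesis genes 0 were higher and 7 lower in the interaction (3 without the block), by −0.19 log2 for NOP56 and −0.27 log2 for POLR1B.

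Interferon-stimulated genes, the antiviral set, rose at the receptor step. Doxycycline raised 22 of 25 and lowered 0, with a median of 0.34 log2, and without the block 3 were called. The interaction was lower in 6 and higher in 0 (1 and 0 without the block). Of the 25, 17 were receptor-only and 5 opposing. IFIT1 stood at 211, 123 and 158 CPM in uninduced vehicle, 224, 145 and 157 CPM in uninduced E2, 326, 225 and 228 CPM in induced vehicle, and 270.1, 207 and 194 CPM in induced E2 libraries. The number 1 library was the highest of every group, and IFIT1 is called with the number as a block and not without it (adjusted p = 0.0994 for the receptor step and 0.64 for the interaction). IFIT2, IFIT3 and RSAD2 had interactions of −0.54, −0.35 and −0.37 log2, also lost without the block (adjusted p = 0.141, 0.365 and 0.44). Of 24 cytokines, chemokines and their receptors, 3 were higher (LIF, CSF1 and VEGFA) and 5 lower (3 lower without the block). LIF, a cytokine of the IL-6 family, was ligand-only at 21, 17.8 and 21.9 CPM in uninduced vehicle, 21, 19.2 and 22.4 CPM in uninduced E2, 26.1, 21.8 and 23 CPM in induced vehicle, and 72.4, 81.8 and 79.3 CPM in induced E2 libraries, with an interaction of 1.69 log2 (SE 0.11, adjusted p = 8.22e-10).

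Lineage genes moved at both steps. Of 15 luminal genes 9 were higher in the interaction and 1 lower (7 and 1 without the block). Doxycycline alone raised 10 (6 without the block). CDH1, which encodes E-cadherin, stood at 143, 153 and 153 CPM in uninduced vehicle, 143, 149.7 and 149 CPM in uninduced E2, 174, 178 and 175 CPM in induced vehicle, and 316, 337 and 340.3 CPM in induced E2 libraries. Its interaction was 0.94 log2 (SE 0.04, adjusted p = 1.22e-11) on a receptor step of 0.23 log2. TFAP2C and EHF, epithelial transcription factors, were higher by 0.76 and 0.55 log2, and the luminal factor FOXA1 was the 1 lower member, at −0.63 log2 after a receptor step of 0.37 log2. Of 26 basal and squamous genes, doxycycline alone raised 7 and lowered 13 (5 and 9 without the block). The 13 included 6 of 7 keratins. The interaction was higher in 7 and lower in 10 (1 and 4 without the block). ITGB4, an integrin of hemidesmosomes, and FOXQ1 were lower by −0.67 and −1.18 log2, and S100A7, which has a close copy and is uncertain, was higher by 0.74 log2.

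The last lists were set as references. Of 14 reference genes, 1 was higher and 0 lower, TFRC, the transferrin receptor (0.34 log2). Of 6 tested signs of RNA quality 0 were called in the interaction, with a median of −0.14 log2. Doxycycline alone raised 1 of them, the histone gene HIST1H2AC (0.34 log2 (SE 0.10, adjusted p = 0.0281)), with a list median of 0.15 log2, and that call is lost without the block (adjusted p = 0.2) and with DESeq2 (adjusted p = 0.131). Of 15 clock genes, 3 were higher and 4 lower, and without the block 1 and 2. At the threshold itself, MYO1E was the last gene inside, with an interaction of −0.20 log2 and an adjusted p of 0.04996, and LYSMD3 the first outside, with 0.21 log2 and an adjusted p of 0.05015.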

How the data were processed

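RNA sequencing of 12 libraries gave 1 file each, in which the authors deposited RSEM expected counts for 23228 genes, with a second column of transcript fractions that was not tested. RSEM 1.1.16, DESeq 1.7.10 and hg19 are named in the submitters' processing notes; the sources used here name no aligner. TruSeq libraries were made from total RNA, per the labels' protocols. Expected counts are estimates that can split reads between genes sharing sequence.

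Counts were rounded and filtered with filterByExpr (minimum count 10, minimum total 15), which kept 14541 genes, scaled by TMM and fitted with edgeR 4.0.16 in R 4.3.3. The quasi-likelihood model had a mean per group and a block for each replicate number, which left 6 residual degrees of freedom. Benjamini-Hochberg adjustment was run over all genes of a contrast, and an adjusted p under 0.05 was called. Levels are TMM-scaled CPM. The fit was tested on simulated data.

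The rule for the comparison sets the block. Whether numbers pair the samples was checked by the correlation of deviations from group means over 12376 genes: same-numbered libraries had 0.104 to 0.464 (18 pairs) and differently numbered ones −0.427 to 0.278 (36 pairs). With 12423 genes chosen by average log2 CPM the lowest same-numbered value was 0.0411. Number, file date and lane go together. As a covariate, the file date set number 1 apart from numbers 2 and 3, so it was a part of the number block and not a separate check.

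Genes were named as the 12 largest called interactions in each direction (average log2 CPM of at least 1, same sign in all 3 numbers), the 6 largest receptor steps in each direction per pattern, up to 4 called members per list, and ESR2 and ESR1. Of these, 4 genes are not reported here. The comparison, the 33 gene lists and this rule were chosen with earlier results of these data known. Alternatives were no block, file date as covariate, DESeq2 1.42.0, limma-voom (limma 3.58.1), RLE and upper quartile scaling, a stricter filter or none, an adjusted p under 0.01, a 1.5-fold minimum, and each library or number left out. Promoter windows are from RefSeq on GRCh38.p14; no other genome position is given because the files use hg19.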

Additional observations from a re-analysis of the deposited data

Results flagged for a closer look

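The E2 change differed between induced and uninduced cells, by the interaction term of edgeR's quasi-likelihood model, in 1288 genes with a higher and 855 with a lower E2 effect in induced cells. Of the genes named with the largest increases, EGR3 had an interaction of 5.27 log2, SHISA2 4.3, BSND 3.7, TMEM189-UBE2V1 3.04 and LOXL4 3.03. A4GALT followed at 2.95, RET at 2.87, EFR3B and VWF both at 2.82, RBM24 at 2.81, MGAT3 at 2.8 and DOK7 at 2.74 log2. Of the decreases, ADAMTS5 had −2.72 log2, DKK1 −1.96, ADAMTS1 −1.93, STON1 −1.61 and SHROOM2 −1.5. MSH5-C6orf26 followed at −1.47, KLHL38 at −1.46, SOX11 at −1.41, RASSF10 at −1.4, HRCT1 at −1.36 and PPP1R3C at −1.31 log2.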

How the results depend on the processing

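Without the replicate block, the interaction was higher in 823 and lower in 409 genes and doxycycline without E2 raised 355 and lowered 199, leaving 973 ligand-only, 295 receptor-only, 233 additive and 26 opposing genes. Of these, 794 ligand-only, 219 receptor-only, 233 additive and 26 opposing genes had the same pattern with the block. DESeq2 called 988 interactions higher and 521 lower. It sorted 1029 genes as ligand-only, 567 as receptor-only, 421 as additive and 59 as opposing. With limma-voom, 1151 interactions were higher and 690 lower, with 1292 ligand-only, 570 receptor-only, 472 additive and 77 opposing genes. For the thresholds and filters that follow, counts within 1.5-fold of those of the fit with the block are not printed. At an adjusted p under 0.01, 504 interactions were lower, doxycycline raised 525 and lowered 334, and 450 genes were receptor-only, 368 additive and 41 opposing. With a 1.5-fold minimum, the interaction was higher in 444 and lower in 172, doxycycline raised 174 and lowered 73, and 514 genes were ligand-only, 145 receptor-only, 87 additive and 15 opposing. A called step under 1.5-fold counted there as absent. Of the 514 ligand-only genes 335, and of the 145 receptor-only genes 111, had the same pattern without the minimum. Without the filter on low counts, 1 gene was called for E2 in uninduced cells, and it had no interaction, so 1 gene was sorted there. The cause of these differences was not tested.

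With each library or number left out, interactions were higher in 771 to 1366 and lower in 416 to 932 genes, and doxycycline raised 478 to 846 and lowered 321 to 704. Patterns ranged from 837 to 1642 ligand-only, 449 to 866 receptor-only, 299 to 570 additive and 51 to 114 opposing genes. E2 in uninduced cells had 0 to 4 calls, of which 0 to 2 lacked an interaction. The lowest counts came without number 3, except that E2 in uninduced cells had the most calls without number 2. Leaving out induced vehicle replicate 1 moved the receptor-only count to 509, and leaving out uninduced vehicle replicate 3 moved the doxycycline decreases to 411. Where a group kept 2 libraries, they were taken to vary like the other groups.

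Of 146 named genes with a called interaction, 113 kept the call without the block, 132 with DESeq2, 142 with limma-voom and 146 with the file date as covariate, and 0 changed sign under any alternative. Of 96 named receptor steps, 65, 91, 89 and 95 kept it. For genes in the text, named interactions that were lost without the block are given beside their values, as are most receptor steps. The receptor steps of AMOTL2, B4GALT1, DNAJC3, EHF, IFIT2, PMAIP1, RSAD2, SPRY4, SREBF1, SYS1-DBNDD2, TFRC, THRB and TMEM189-UBE2V1, which the text does not print, were lost as well (adjusted p from 0.0554 in RSAD2 to 0.616 in THRB). Losses under the other alternatives are given for some genes only. In edgeR, the interaction calls of ACSS2, GINS4 and BCL2L1 were lost without number 3 (adjusted p = 0.161, 0.117 and 0.0867). That of POLR1B was lost without number 2 (adjusted p = 0.0642). Upper quartile scaling moved the median interaction to −0.04 log2. Levels near 3 counts limit the fold changes of FGF19, SHISA2 and ADAMTS5.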
